A study of Mus musculus with 194 samples.

Results

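A set of 8 genes known from the neuroblastoma lineage was followed across transposon insertion tables from mouse brain and from N2a cells, an established mouse neuroblastoma line. The 8 loci were the RefSeq bodies of Phox2a, Hand2, Gata2, Gata3, Isl1, Mycn, Ret and Dbh with 10 kb on each side, out of 21631 protein-coding loci on chromosomes 1 to 19 and X. The assay was calling cards, in which a transposase places a reporter transposon at TTAA sequences, and an insertion is 1 row of a deposited table. The BrokenHeart libraries were sequenced from DNA and all others from RNA made by a self-reporting transposon. The quantity used throughout is the number of insertions in a locus per 1000000 insertions of the table, written as IPM. It records where the transposon landed and not how much RNA a gene made.

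The tables held 46 animals in 11 groups and 1 N2a table that pools 3 experiments. The animals were injected with AAV on postnatal day 0 to 1, and the tissue was cortex, except in the Rbp4Cre_TRAP group, where it was whole forebrain. The labels repeat the injection for N2a and do not otherwise say how these cells received the transposon. C57bl6J (2 animals) received viruses that do not need Cre. Syn1Cre, a line that drives Cre in neurons through the synapsin promoter, and GFAPCre, a line that drives Cre in astrocytes through the GFAP promoter, had 6 animals each, beside 6 Cre-negative animals of each line (Syn1CreNeg and GFAPCreNeg). Frontflip_GFAPCre and Frontflip_GFAPCreNeg had 3 animals each, and BrokenHeart had 3; the labels explain neither name. Rbp4Cre_TRAP, from a Cre line of deep-layer projection neurons, had 4. The Syn1Cre_SP1_P28 group (4 animals) and the Syn1Cre_SP1_P10 group (3 animals) carry the name of the transcription factor SP1 and a postnatal day, 28 or 10. The labels give neither the SP1 construct nor the age of the other groups, and they name no transposase.

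PHOX2A, HAND2, GATA2, GATA3 and ISL1 are transcription factors of sympathetic neurons and their neuroblast precursors, and in noradrenergic neuroblastoma they act together with MYCN, a growth-promoting MYC family factor. RET is the receptor tyrosine kinase for GDNF family ligands, and DBH converts dopamine to noradrenaline. A transposase without a fused factor tends to insert near active enhancers, so a locus can gather insertions in one cell type and few in another.

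Depth set the precision. N2a had 806653 insertions, and the C57bl6J animals had 1545951 and 2186743. Syn1Cre animals had 443158 to 1364948 and GFAPCre animals 600443 to 1505413, whereas SP1 animals had 108965 to 577609 at day 28 and 86842 to 95331 at day 10. Frontflip_GFAPCreNeg animals had 2341 to 9601 and Rbp4Cre_TRAP animals 24408 to 57014, so that 1 insertion there weighs far more in IPM. Because N2a is 1 pooled table, no test compares it with the animals, and its intervals are exact Poisson 95% intervals that cover counting error only.

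Promoter sequences from the RefSeq promoter table (GRCm38.p6) are shown because the insertions described next lie around or on them. Each is the 250 bases before the annotated start, 5′ to 3′ on the gene's strand, with every TTAA, the sequence at which the transposon inserts, in capitals. In Mycn the hexamer GGGCGG is in capitals too, searched on both strands and so also written CCGCCC. The hexamer is the core of the GC box that SP1 is known to bind.
Hand2, chr8:57320733-57320982, plus strand: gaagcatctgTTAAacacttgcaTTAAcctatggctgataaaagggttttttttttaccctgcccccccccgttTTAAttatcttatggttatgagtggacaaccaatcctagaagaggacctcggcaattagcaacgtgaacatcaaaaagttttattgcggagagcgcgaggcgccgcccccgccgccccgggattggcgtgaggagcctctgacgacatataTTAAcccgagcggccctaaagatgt
Gata3, chr2:9878601-9878850, minus strand: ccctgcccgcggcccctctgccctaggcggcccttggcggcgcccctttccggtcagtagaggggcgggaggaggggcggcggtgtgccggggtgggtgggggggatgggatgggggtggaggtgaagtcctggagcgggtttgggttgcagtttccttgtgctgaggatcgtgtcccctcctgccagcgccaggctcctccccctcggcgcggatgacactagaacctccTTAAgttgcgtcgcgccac
Isl1, chr13:116309689-116309938, minus strand: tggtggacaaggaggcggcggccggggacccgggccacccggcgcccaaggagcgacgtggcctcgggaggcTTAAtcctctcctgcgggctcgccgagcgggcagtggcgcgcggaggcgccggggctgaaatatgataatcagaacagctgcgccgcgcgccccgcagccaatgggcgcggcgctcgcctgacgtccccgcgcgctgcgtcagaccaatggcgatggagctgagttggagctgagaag
Mycn, chr12:12941837-12942086, minus strand: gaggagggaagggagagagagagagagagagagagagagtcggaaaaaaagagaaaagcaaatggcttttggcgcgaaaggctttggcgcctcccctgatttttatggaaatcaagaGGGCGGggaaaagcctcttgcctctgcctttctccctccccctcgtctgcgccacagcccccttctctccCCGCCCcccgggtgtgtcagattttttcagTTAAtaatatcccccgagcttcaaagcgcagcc
Hand2 held 4 TTAA, and the Gata3, Isl1 and Mycn windows 1 each. Both Gata2 windows and the Dbh window held 0, and the Phox2a window 1. Of 32619 RefSeq windows of this length, 48.9% held a TTAA and 33.0% a GGGCGG on either strand. In a check of the coordinates, 8720 of 8720 N2a insertions that fell into promoter windows lay on a TTAA. For BrokenHeart animal 1 the check gave 642 of 661 (97.1%).

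The comparison of N2a with C57bl6J cortex asks which of these loci the neuroblastoma line marks more than brain does. At 5 of the 8 loci N2a held at least 2-fold more IPM than the mean of the C57bl6J animals (Hand2, Gata2, Gata3, Phox2a and Ret), and at 0 loci it held 2-fold fewer. Among 16482 loci with at least 20 insertions over the 3 tables, 28.8% reached 2-fold higher and 20.7% 2-fold lower. Phox2a, Hand2, Gata2 and Gata3 had 6, 3, 7 and 8 C57bl6J insertions, so they reached that minimum only through N2a. A locus this empty in C57bl6J is compared only where N2a is high, so it can only be called higher. The shares and ranks over all loci compared are thus no test of these loci. The median ratio of the 8 loci was 9.03, against 1.23 over all loci compared. The remaining 3 loci, Isl1, Mycn and Dbh, had ratios between 1.21 and 1.44, near that overall median.

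**Figure D1:**
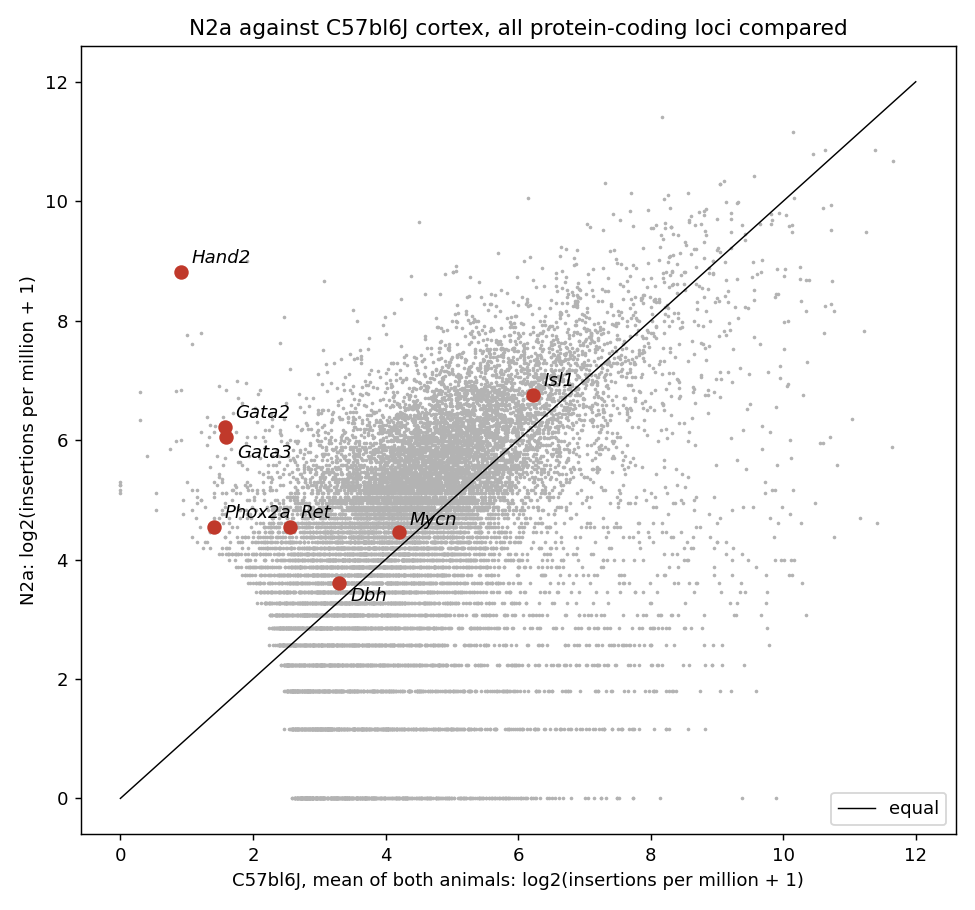
Each grey point is a protein-coding locus with at least 20 insertions over the 3 tables, with the C57bl6J mean on the x axis and N2a on the y axis, both as log2(IPM + 1), and red points are the 8 loci. Hand2, Gata2, Gata3, Phox2a and Ret lie above the line of equal values, and Isl1, Mycn and Dbh lie close to it.

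Hand2, a basic helix-loop-helix factor needed for the noradrenergic program, carried the most. N2a had 363 insertions, or 450 IPM (95% interval 405 to 499), and the C57bl6J animals had 2 and 1 insertions, or 1.29 and 0.457 IPM. The ratio was 514, with a counting interval of 190 to 2728 because the denominator is 3 insertions, and it was the highest of the 16482 loci. Hand2 is among these loci only through N2a, so this rank is descriptive. The ratio was 984 without C57bl6J animal 1 and 348 without animal 2. Hand2 alone made up 58.3% of the 623 N2a insertions in the 8 loci. The other animals were low as well: the highest value over all 46 was 17.2 IPM, in BrokenHeart animal 1, and 33 of the 46 held 0. Syn1CreNeg held 0 Hand2 insertions of 1768674, which allows up to 1.70 IPM.

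The N2a insertions around Hand2 were spread over 72 positions, of which 52 were hit repeatedly and 20 once. They lay mostly beyond the gene: 42 of 363 (11.6%) fell in the gene body, which is 15.02% of the locus. The 5 kb with the most insertions, chr8:57330983-57335982, began 6.47 kb past the end of the body and overlaps the long noncoding RNA genes Gm34030 and Hdnr. It runs past the end of the locus and held 161 N2a insertions, 142 of them inside the locus, and 1 in the C57bl6J animals together. The position hit most, chr8:57331835, took 40 insertions on both strands and from both N2a barcodes, and 0 in C57bl6J. Only 1 insertion lay in the printed Hand2 window, and 26 lay within 1 kb of the start. A row can repeat a position, strand and barcode, and such rows were 28.4% of the N2a table and 2.07% and 2.22% of the C57bl6J tables. Counted as distinct positions, the Hand2 ratio was 108.

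Gata2 and Gata3 encode zinc-finger factors of sympathetic development. Gata2 had 59 N2a insertions, 73.1 IPM (55.7 to 94.3), against 2.59 and 1.37 IPM in the C57bl6J animals. The ratio was 36.9 (17.8 to 101). Gata3 had 53 N2a insertions, 65.7 IPM (49.2 to 85.9), against 1.29 and 2.74. Its ratio was 32.5 (14.5 to 74.7), with 23.9 without C57bl6J animal 1 and 50.8 without animal 2. From the top of the 16482 loci, Gata2 ranked 41 and Gata3 45. Both entered this ranking only through their N2a insertions, so the ranks are descriptive. Both C57bl6J animals were far below N2a at either gene, with at most 6 insertions each.

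Gata2 and Gata3 differed in where the insertions lay. At Gata2 the 5 kb within the locus with the most, chr6:88198891-88203890, held 24 N2a and 0 C57bl6J insertions inside the body, and the most used position there, chr6:88203046, took 7. A larger group lay outside the locus, before the gene at chr6:88113891-88118890, with 47 N2a and 2 C57bl6J insertions and no annotated RefSeq gene in it. No insertion lay within 1 kb of either Gata2 start. At Gata3 the richest 5 kb, chr2:9877078-9882077, spans the annotated start, with 23 N2a insertions and 1 in C57bl6J, and the position chr2:9880803, which lies before that start but inside the longest annotated body, took 5. The Gata3 locus also contains the noncoding genes 4930412O13Rik and 9230102O04Rik, and the Gata2 locus contains Gm38708 and overlaps the locus of Dnajb8, so these genes share insertions.

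Phox2a, a homeodomain factor that switches on Dbh, had 18 N2a insertions, 22.3 IPM (13.2 to 35.3), and 1.94 and 1.37 IPM in the C57bl6J animals. The ratio was 13.5 (5.28 to 42.7). Of the 18, 5 lay in the body and 10 in the 5 kb just before it. The locus overlaps Inppl1 and the locus of Folr2 and cannot be assigned to Phox2a alone.

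**Figure D2:**
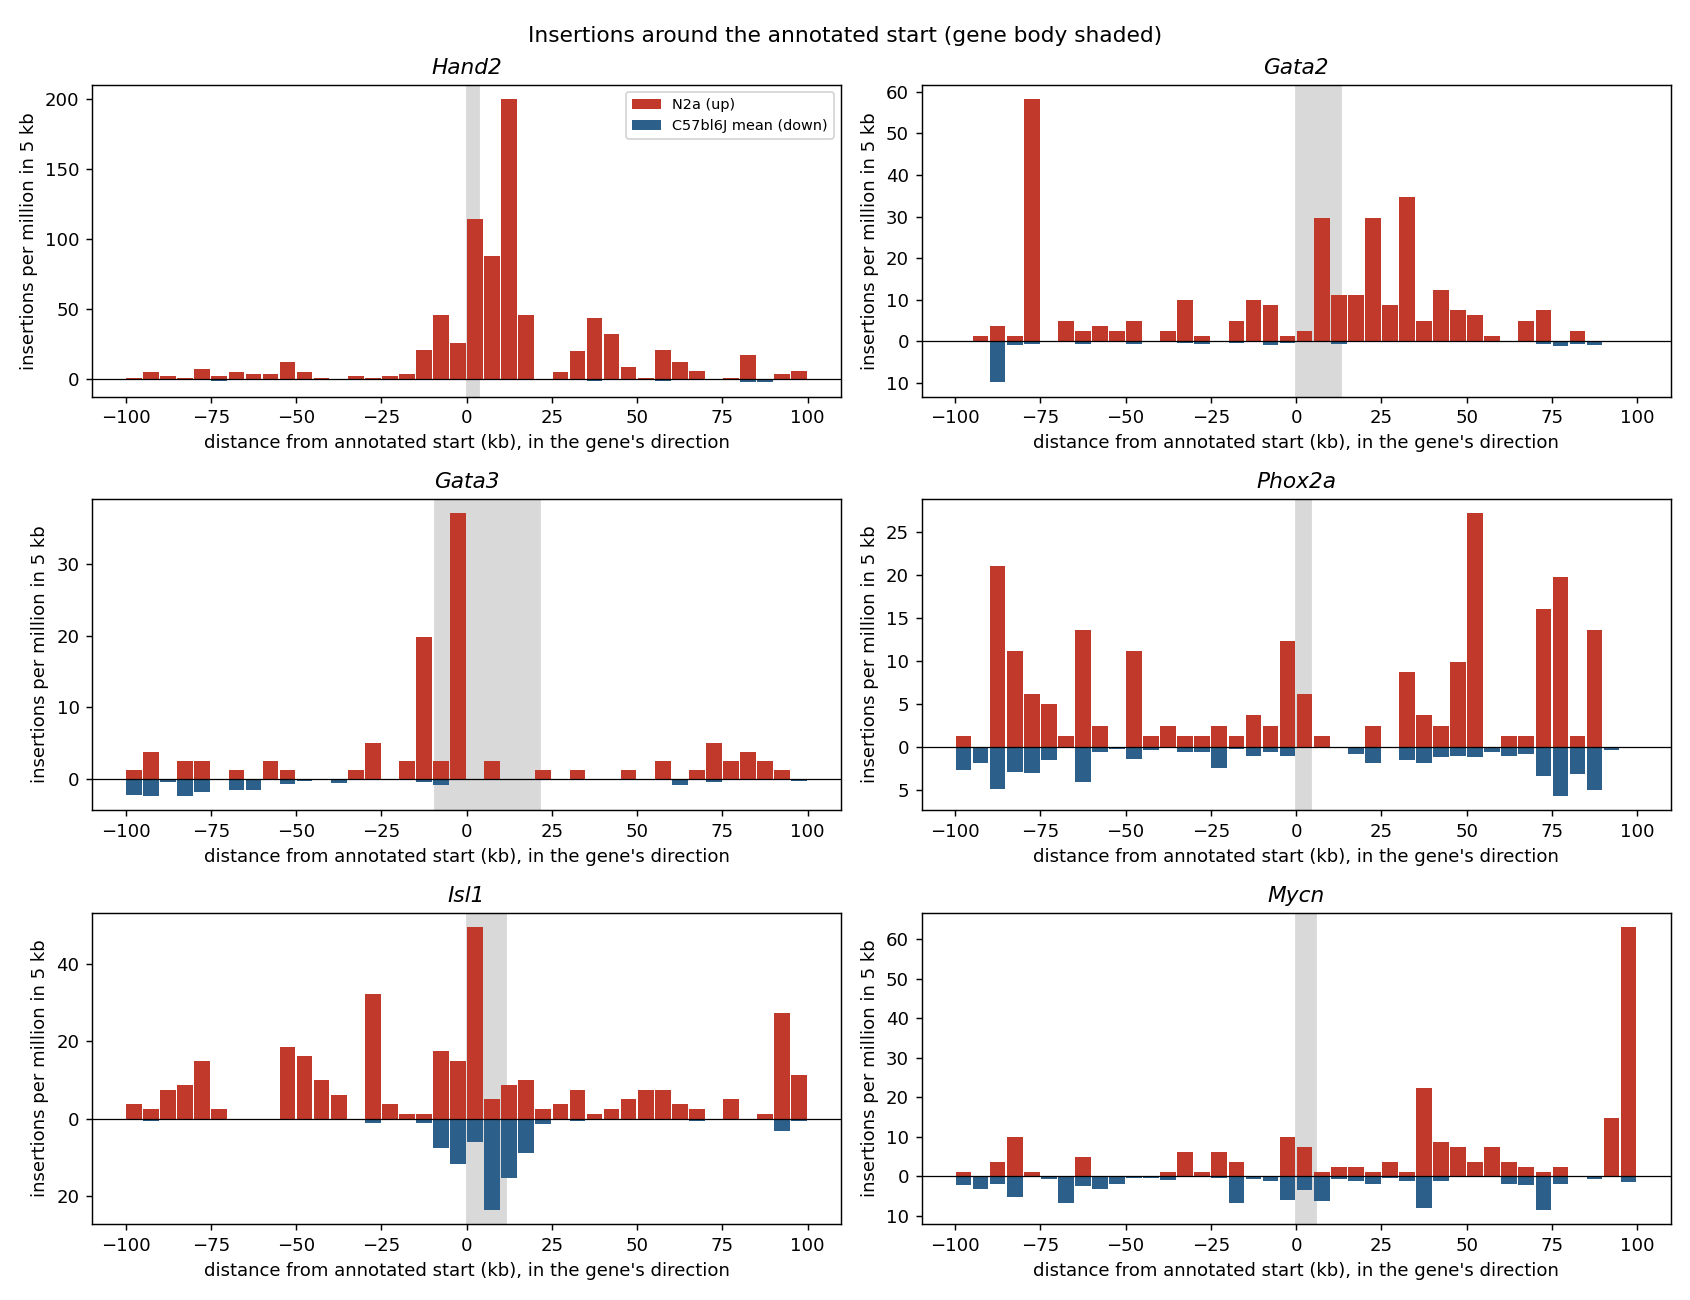
IPM in 5 kb bins from 100 kb before to 100 kb past the annotated start, in the direction of each gene, with N2a upward in red, the C57bl6J mean downward in blue and the gene body shaded. At Hand2 the highest N2a bin is 199.6 IPM just past the gene, and at Gata2 it is 58.3 IPM far before the gene. At Isl1 the highest N2a bin, 49.6 IPM, is the first past the start. The highest C57bl6J bin there, 23.6 IPM, lies further into the body.

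Ret had 18 N2a insertions, 22.3 IPM (13.2 to 35.3), and 5.17 and 4.57 IPM in the C57bl6J animals, a ratio of 4.58 (2.27 to 9.43). Its insertions lay outside the gene: 4 of the 18 were in the body, which is 69.7% of the locus, and with the body alone the ratio was 1.61. All 18 carried barcode GTTAC, from N2a experiments 1 and 3 per the labels. Barcode AGTGC, from experiment 2, had 0 Ret insertions of 127213, which allows up to 23.6 IPM. The locus overlaps that of Csgalnact2.

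The barcodes gave like levels at the other loci that were higher in N2a. Hand2 had 446 IPM with GTTAC (397 to 499) and 472 with AGTGC (360 to 607), and Gata2 had 73.6 (54.6 to 97.0) and 70.7 (32.4 to 134). Gata3 had 64.8 (47.1 to 86.9) and 70.7 (32.4 to 134). Phox2a had 16 and 2 insertions with the same barcodes. All these intervals overlap between barcodes.

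Isl1, a LIM homeodomain factor of sympathetic and other neurons, was the only locus of the 8 with many insertions in both. N2a had 86 insertions, 106.6 IPM (85.3 to 132), and the C57bl6J animals had 126 and 145, or 81.5 and 66.3 IPM. The ratio was 1.44 (1.14 to 1.88), but 5.75 with the Syn1Cre animals in place of C57bl6J and 5.34 with the GFAPCre animals. The insertions were placed differently. Within 2 kb of the start lay 29 of the 86 N2a insertions, or 33.7% (exact Clopper-Pearson 95% interval 23.9 to 44.7), and 13 of the 271 C57bl6J insertions, or 4.80% (2.58 to 8.06). These intervals pool insertions and cover counting error only, and the C57bl6J animals had 3 of 126 and 10 of 145. The surroundings differed as well: in the 1 Mb on each side of the locus N2a held 9.50 times the C57bl6J level, and relative to it the Isl1 ratio was 0.152.

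Mycn and Dbh differed less than 2-fold between N2a and C57bl6J. Mycn had 17 N2a insertions, 21.1 IPM (12.3 to 33.7), against 15.5 and 19.2 in the C57bl6J animals, and Dbh had 9, 11.2 IPM (5.10 to 21.2), against 9.06 and 8.69. The ratios were 1.21 for Mycn (counting interval 0.656 to 2.06) and 1.26 for Dbh (0.531 to 2.70), so both intervals hold 1. Neither interval reaches a 2-fold lower level, but both pass a 2-fold higher one, which is thus not excluded. Both ratios moved with the processing. For Mycn the ratio was 2.26 with the gene body alone and 2.32 with 50 kb on each side, and for Dbh it was 0.729 and 0.629. With barcode AGTGC alone the ratios were 0.453 for Mycn and 0.886 for Dbh. Each of these rests on 1 insertion of 127213 (7.86 IPM, 0.199 to 43.8). The direction for Dbh thus depends on these choices, and for Mycn only the value from 1 insertion lay below 1 among them. A group of 50 N2a insertions, against 5 in C57bl6J, lay past Mycn at chr12:12841093-12846092, outside the locus. The Dbh locus overlaps Sardh and the antisense-named gene Dbhos.

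Ratios relative to the 1 Mb on each side were 116 for Hand2, 21.9 for Gata2, 8.01 for Gata3, 6.54 for Phox2a and 3.08 for Ret. Among the chromosomes that carry the 8 loci, the share of insertions in N2a was from 0.824 times that in C57bl6J on chromosome 12, which carries Mycn, to 1.28 times on chromosome 7, which carries Phox2a. The part of chromosome share and surroundings in the ratios was not tested.

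The other genes of the pathway were read from fixed lists. Of 11 sympathoadrenal transcription factors with enough insertions, 5 were at least 2-fold higher in N2a and 0 lower. Tfap2a, Tbx2 and Gata1 had 0, 5 and 1 N2a insertions and 12, 4 and 16 in C57bl6J. They were under the minimum of 20 and were not compared. A locus with few C57bl6J insertions, such as Hand1 with 6, reached that minimum only through N2a. Among all loci compared, 28.8% were 2-fold higher and 20.7% lower. The median ratio of the 11 was 1.51 against 1.23 over all loci. Among the highest were Hand1 at 75.6 IPM against 1.29 and 1.83 (ratio 48.4) and Tfap2b at 181 against 4.53 and 10.1 (24.8). The 2 lowest of the 11 were Insm1 at a ratio of 1.10 and Eya1 at 0.724. The list thus holds a few loci far above the rest and others near the overall median.

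Noradrenergic synthesis and transport had 6 of 8 loci 2-fold higher and 0 lower, beside 28.8% and 20.7% of all loci, with a median ratio of 2.89. Ddc, the enzyme that makes dopamine from L-DOPA, was highest at 429 IPM against 19.4 and 20.6 (ratio 21.5), followed by Gch1, which makes a cofactor of tyrosine hydroxylase (5.75), and Chgb, a granule protein (3.37). Cyb561 was at 1.92 and Pnmt, which makes adrenaline, at 0.505. Th, the first enzyme of the path, had 11 N2a and 3 C57bl6J insertions, and Slc6a2, the noradrenaline transporter, 0 and 7, both under the minimum of 20.

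Of 14 RET and neurotrophin loci, 5 were 2-fold higher and 4 lower, beside 28.8% and 20.7% of all loci, with a median ratio of 1.51. Artn, a ligand of the RET family, was at 12.7, Ngfr at 8.28 and Alk, a receptor kinase mutated in some neuroblastomas, at 5.63. Gfra3 was at 0.268, and Ntrk2, the BDNF receptor, was lowest at 9.92 IPM against 690 and 610 (ratio 0.0153). Of 12 MYC family and growth loci, 6 were higher and 1 lower, with a median of 1.88. Ccnd1 was at 13.1, Myc at 6.46, Mdm2 at 4.14, Aurka at 0.794 and Mycl at 0.471.

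The mesenchymal and neural crest list had 3 loci higher and 2 lower of 8, beside the same 28.8% and 20.7%, with a median of 0.861, from Runx1 at 4.72, Twist1 at 4.15 and Meox1 at 3.34 down to Yap1 at 0.197 and Snai2 at 0.107. Lists of 3 brain cell types lay below the median of all loci, 1.23. Of 12 cortical neuron loci 11 were 2-fold lower and 0 higher, with a median ratio of 0.0783, and Gad2 alone was near 1, at 0.992. Neurod6 had 0 N2a and 1039 C57bl6J insertions. Of 8 astrocyte loci 5 were lower and 1, Aldh1l1, was higher, with a median of 0.280. Oligodendrocyte loci were lower at 4 of 5, with a median of 0.382, where 20.7% of all loci were lower. Microglia and endothelium loci were lower at 1 of 5 and higher at 1, with a median of 1.27.

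**Figure D3:**
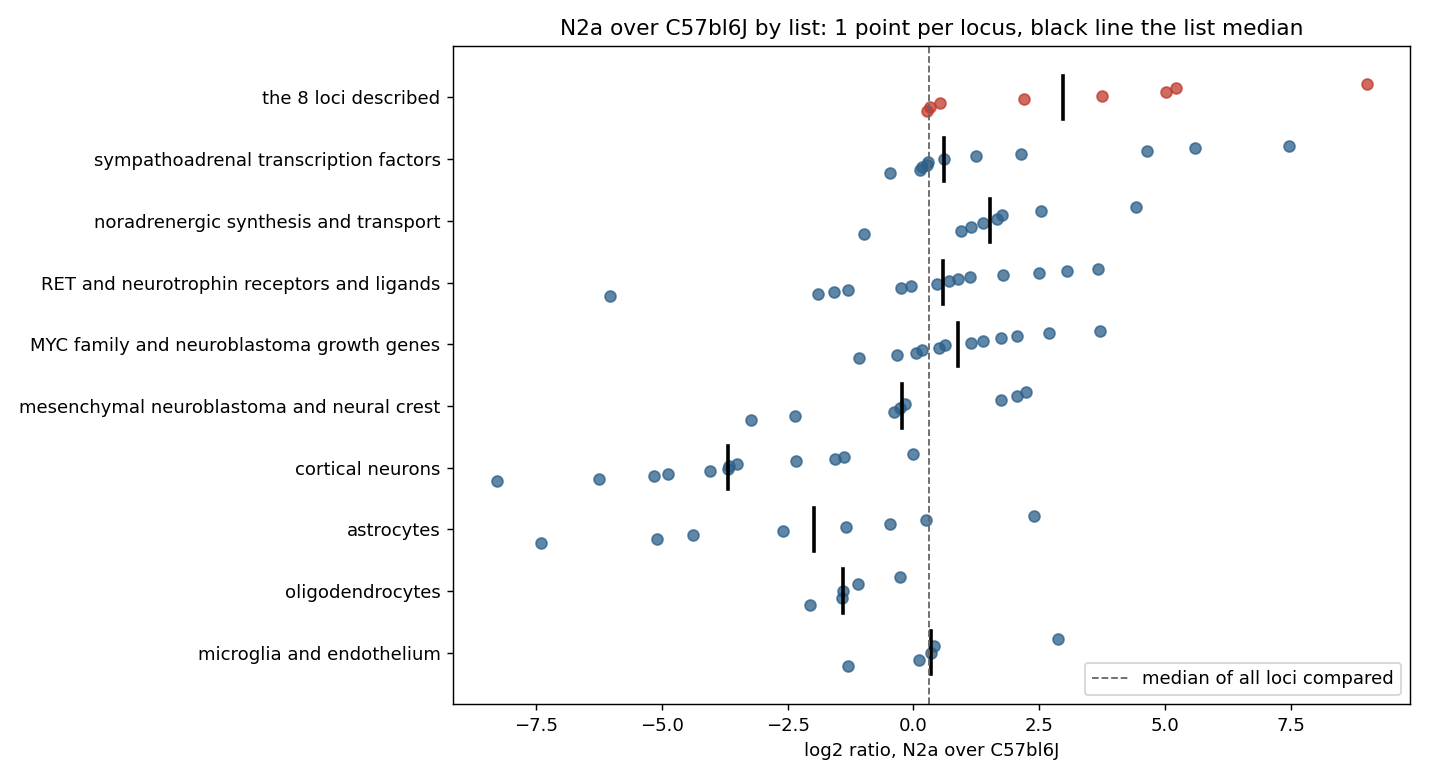
Each point is a locus, placed by the log2 ratio of N2a over C57bl6J IPM, and the black line is the list median. The 8 loci described have a median ratio of 9.03 against 1.23 for all loci compared (dashed line), and the cortical neuron list lies at the left with a median of 0.0783.

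Within brain, the loci differed widely in how many insertions they held. Phox2a, Hand2, Gata2 and Gata3 had 18, 18, 47 and 35 insertions over the 46 animals, and 34, 33, 27 and 30 animals held 0. Ret and Dbh had 91 and 158, Mycn 469 and Isl1 610. No animal exceeded N2a at Phox2a, Hand2, Gata2, Gata3 or Isl1, and 1, 10 and 15 animals did at Ret, Dbh and Mycn. The Gata2 values in BrokenHeart, 17.2, 30.6 and 23.5 IPM, rest on 5 insertions in 3 animals.

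**Figure D4:**
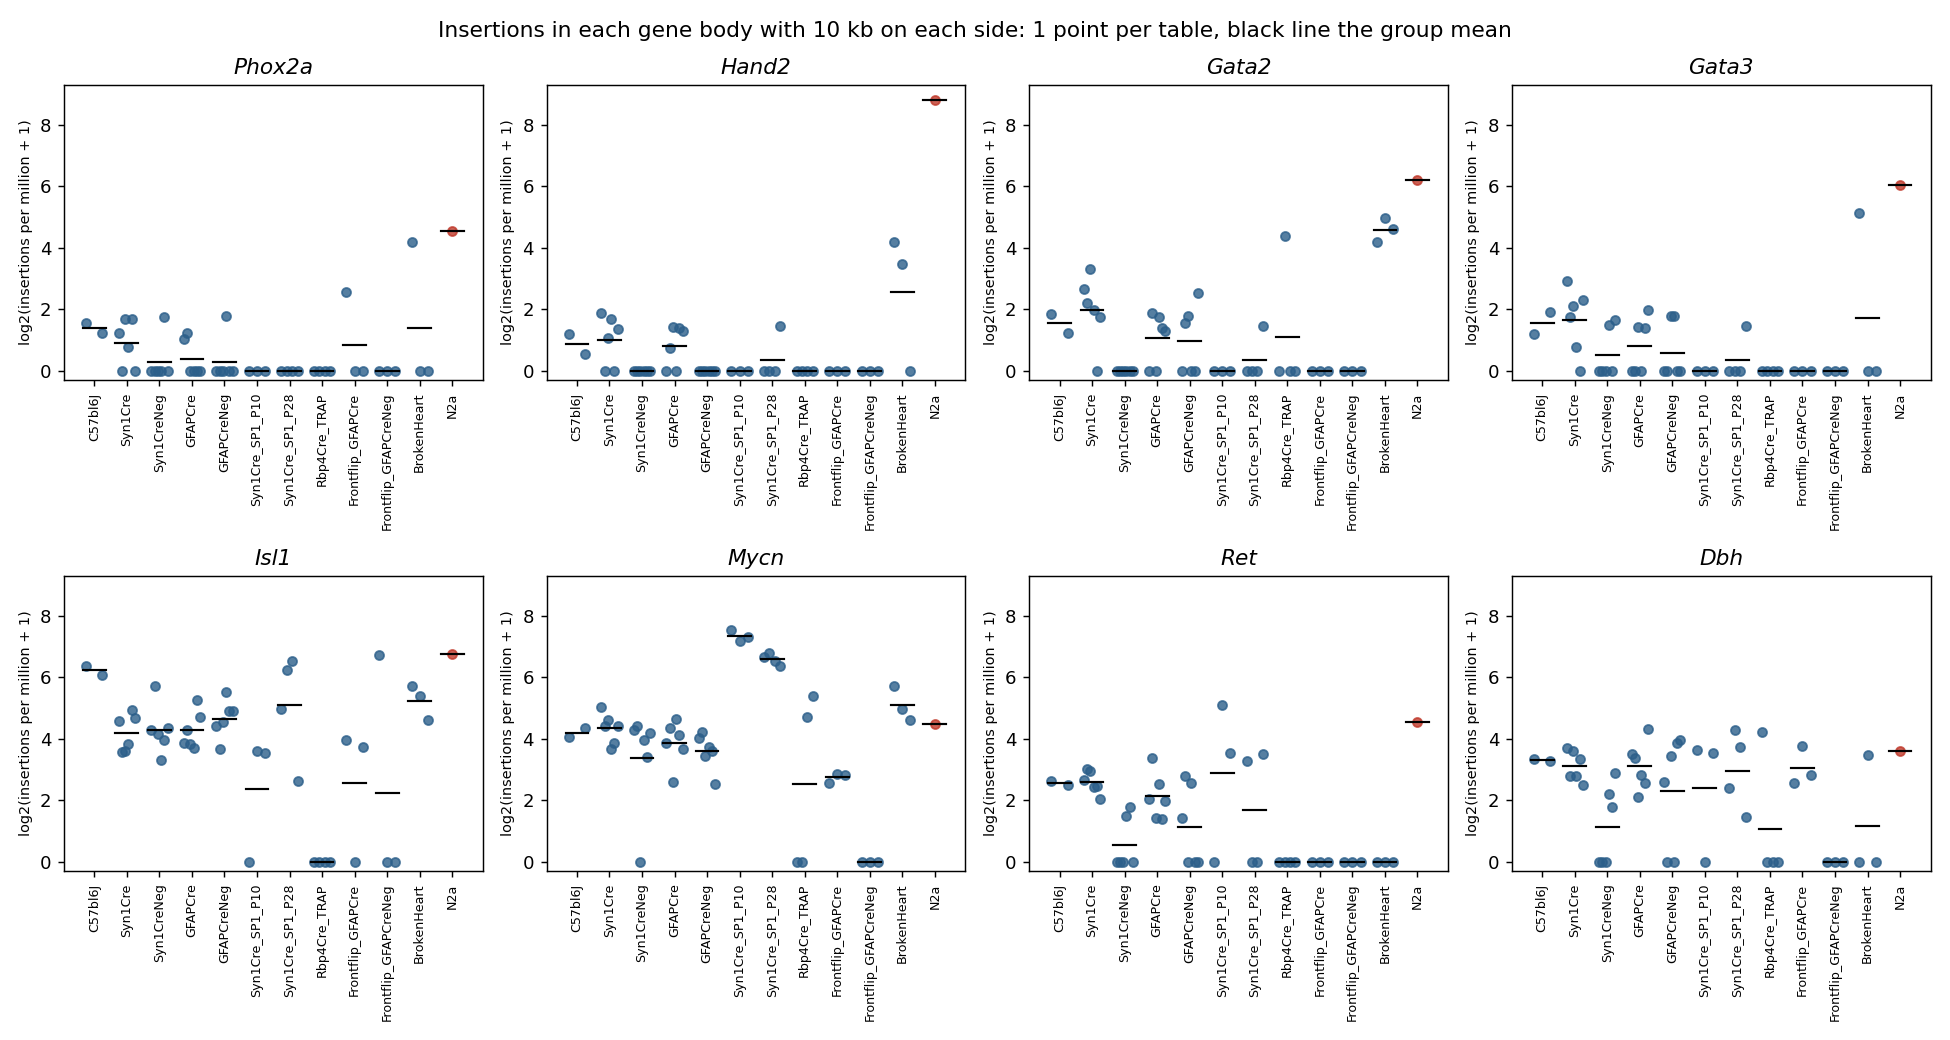
Each panel is 1 gene and each point 1 table, as log2(IPM + 1), with the mean of these values per group as a black line and N2a in red. Hand2, Gata2, Gata3 and Phox2a are highest in N2a, Mycn is highest in the 7 animals labelled SP1, and Isl1 is high in C57bl6J and N2a.

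The comparisons between animal groups ask whether the loci differ by Cre line, by Cre status or with SP1. They were tested with the edgeR quasi-likelihood test across all loci with Benjamini-Hochberg adjustment, and its low-count filter left at most 3 of the 8 loci in any comparison. Between Syn1Cre and GFAPCre, where 2.15% of 11553 loci passed (1.19% higher and 0.961% lower), Isl1 and Mycn were tested and 0 of 2 passed. Isl1 stood at 18.5 ± 7.85 IPM for Syn1Cre against 20.0 ± 9.80 for GFAPCre (SD over 6 animals, n = 6; log2 difference -0.16, SE 0.28, edgeR adjusted p = 0.818). Mycn was at 20.2 ± 7.26 and 14.95 ± 6.54 (0.27, SE 0.25, edgeR adjusted p = 0.62).

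Against the Cre-negative animals little could be tested. Over GFAPCreNeg, where 8.15% of 9203 loci passed (5.97% lower), Isl1 alone was tested and did not pass, at 26.1 ± 11.1 IPM in GFAPCreNeg (SD, n = 6; log2 difference -0.37, SE 0.29, edgeR adjusted p = 0.473). Over Syn1CreNeg, where 31.1% of 8613 loci passed, none of the 8 reached the filter. Ret stood at 3.12 to 7.16 IPM in Syn1Cre and at 0 to 2.39 in Syn1CreNeg, but the latter rest on 2 insertions in all. In Syn1CreNeg animals 1 to 3, 0 insertions allow up to 27.9, 30.8 and 25.2 IPM. These limits lie above the Syn1Cre range, so depth does not allow animals 1 to 3 to be told apart from Syn1Cre at Ret. The deeper animals 4 and 5 held 1 insertion each, 1.80 and 2.39 IPM, with counting intervals up to 10.0 and 13.3. In animal 6, 0 insertions allow up to 6.37 IPM, which is inside the Syn1Cre range. The difference at Ret was not tested.

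Isl1 was higher in C57bl6J than in the Cre lines, in comparisons added after its values were seen. The C57bl6J animals had 81.5 and 66.3 IPM. The Syn1Cre animals ranged from 10.7 to 29.3 with a median of 17.9, and the GFAPCre animals from 12.01 to 37.4 with a median of 16.0. Both C57bl6J animals lay above every animal of these 2 groups. The log2 difference was 2.18 over Syn1Cre (SE 0.22, edgeR adjusted p = 2.68e-05), where 0.81% of 14445 loci passed, 0.789% higher and 0.0208% lower, and 2.03 over GFAPCre (SE 0.20, edgeR adjusted p = 5.05e-08), where 7.01% of 13256 loci were higher and 5.49% lower. The same C57bl6J animals serve in both. Scaling by total insertions moved the median of all loci from -0.02 to -0.16 over Syn1Cre and from -0.01 to -0.11 over GFAPCre, and the share of called loci that were higher from 97.4% to 68.5% and from 56.1% to 33.6%. Isl1 rose under both scalings. Rows that repeat a position, strand and barcode were 13.1% to 27.5% of the Syn1Cre tables, and counted as distinct positions Isl1 still passed (edgeR adjusted p = 3.01e-05 and 1.64e-06). The comparisons differ in virus and sequencing pool as well as in Cre line, and these cannot be told apart. Mycn did not pass in either (adjusted p = 0.982 and 0.611 with edgeR), nor did Dbh over Syn1Cre (0.36, SE 0.34, edgeR adjusted p = 0.7).

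Mycn was higher in the animals labelled SP1. At day 28 they had 99.2, 110.1, 91.1 and 81.4 IPM, and at day 10 they had 184, 145 and 157. The Syn1Cre animals ranged from 11.7 to 31.9 with a median of 20.3. No SP1 animal overlapped a Syn1Cre animal. The log2 difference at day 28 was 1.71 (SE 0.23, edgeR adjusted p = 1.02e-06), where 26.2% of 12053 loci were higher and 25.3% lower. At day 10, a comparison added after the values were seen, it was 2.48 (SE 0.31, edgeR adjusted p = 4.82e-07), where 20.1% of 12787 loci were higher. Scaling by total insertions moved the median of all loci from -0.06 to 0.42 at day 28 and from -0.26 to 0.27 at day 10, and the share of called loci that were higher from 50.9% to 80.4% and from 49.3% to 76.1%. Mycn rose under both scalings. The same Syn1Cre animals serve in both comparisons. Per the labels, no sequencing pool holds both SP1 animals and Syn1Cre animals without SP1, and the latter have no labelled age. SP1, pool and age thus cannot be told apart here.

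The SP1 insertions at Mycn were concentrated at the printed start. Within 2 kb of it lay 18 of 23, 10 of 12, 12 of 15 and 40 of 47 insertions in the day 28 animals, and 13 of 16, 13 of 13 and 11 of 15 in the day 10 animals. The Syn1Cre animals had 10 of 24, 5 of 17, 7 of 21, 7 of 16, 3 of 6 and 12 of 26 there. Every SP1 animal had a larger share near the start than every Syn1Cre animal. Pooled, these were 82.5%, 84.1% and 40.0%. Insertions at a shared position may not be independent: the 97 at day 28 lay at 34 positions, summed over the animals' own distinct positions, and 47 came from animal 4. The TTAA in the Mycn sequence, chr12:12941866-12941869, lies 30 bases before the start. It took 11, 5, 7 and 12 insertions in the day 28 animals and 8, 6 and 6 in the day 10 animals. The 6 Syn1Cre animals together had 1 insertion there, N2a had 1 and the C57bl6J animals had 0. In IPM, the site stood at 39.2 ± 12.4 (SD, n = 4) at day 28, at 74.0 ± 15.8 (SD, n = 3) at day 10 and at 0.130 ± 0.319 (SD, n = 6) in Syn1Cre, and no SP1 animal overlapped a Syn1Cre animal. The window holds 2 GGGCGG, on opposite strands, before this TTAA. The Phox2a, Hand2 and Gata3 windows hold 2 GGGCGG as well, together with at least 1 TTAA, and each had 0 SP1 insertions at either age. Of 32619 RefSeq windows, 14.7% held an SP1 insertion at day 28, and 152 held more than the 35 at Mycn. The site was singled out after its values were seen and was not tested. Counted as distinct positions over the locus, the Mycn difference at day 28 was 0.91 (edgeR adjusted p = 0.0136).

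**Figure D5:**
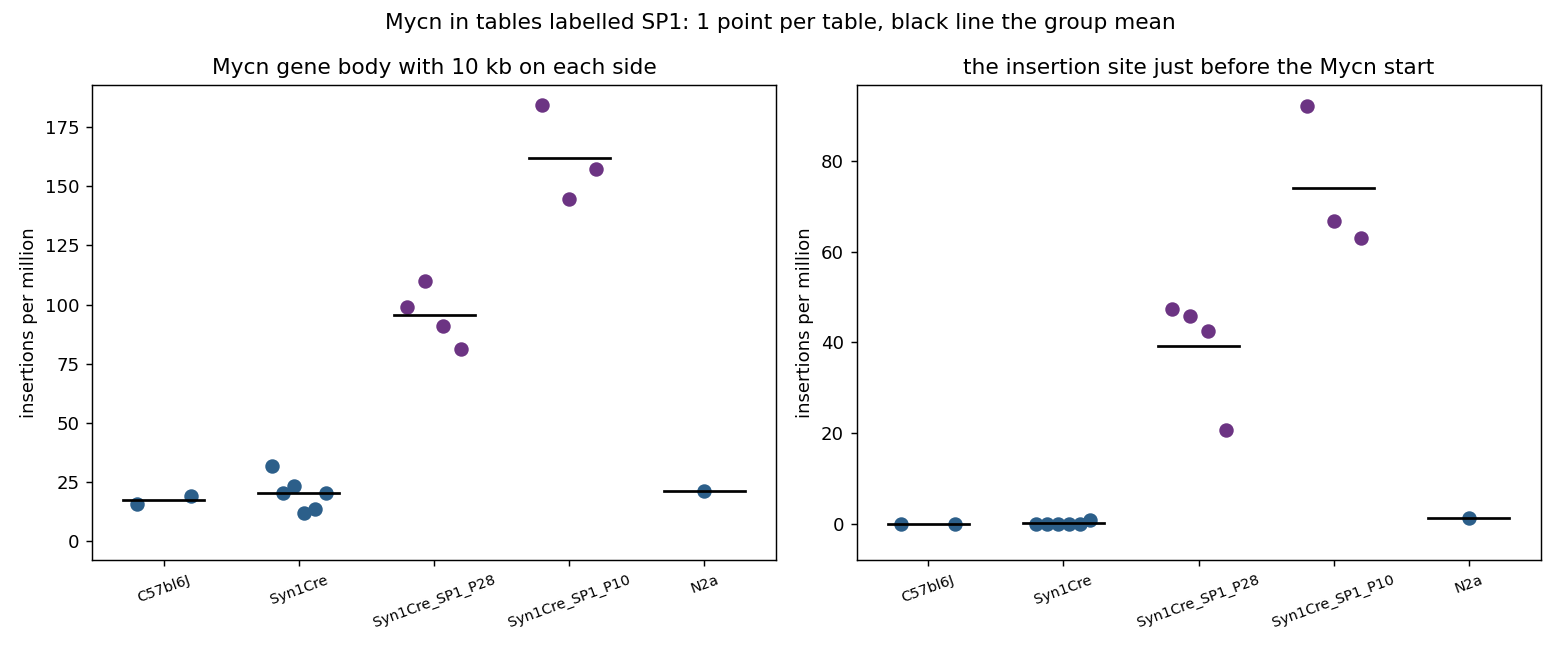
IPM in the Mycn locus (left) and at the single insertion site just before its start (right), with 1 point per table and the group mean as a black line. The 7 SP1 animals lie at 81.4 to 184 IPM in the locus and 20.8 to 92.1 at the site, above every Syn1Cre animal in both.

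Isl1 did not pass the test with SP1. The SP1 animals at day 28 had 30.2, 73.4, 91.1 and 5.19 IPM, and their range covers that of Syn1Cre (log2 difference 0.38, SE 0.48, edgeR adjusted p = 0.527). Without SP1 animal 4 the difference was 1.28 (edgeR adjusted p = 0.0125), and without animal 3 it was -0.26. At day 10 the animals had 0, 1 and 1 insertions (edgeR adjusted p = 0.135). Of the 11 MYC family and growth loci tested at day 28, 5 rose and 2 fell, beside 26.2% and 25.3% of the loci tested, with a median log2 difference of 0.47 against -0.06 for all loci. Ptpn11, a phosphatase of the RAS pathway, rose most, by 2.10 (SE 0.19, edgeR adjusted p = 1.63e-09), and Cdk4, a kinase of the cell cycle, by 1.54 (SE 0.20, edgeR adjusted p = 7.09e-07). Myc rose by 1.70 (SE 0.33), Aurka by 1.72 (SE 0.29) and Mycl by 0.88 (SE 0.32), with edgeR adjusted p of 1.20e-04, 1.89e-05 and 0.0244. Lin28b, an inhibitor of let-7 processing, fell by 0.76 (SE 0.23, edgeR adjusted p = 0.00853) and Ddx1, the neighbour of Mycn, by 0.65 (SE 0.24, edgeR adjusted p = 0.0264). With scaling by total insertions the 5 rises still passed, and neither fall did (Lin28b -0.28, edgeR adjusted p = 0.324, and Ddx1 -0.18, edgeR adjusted p = 0.584). Ccnd1 was at -0.27 and Mdm2 at -0.19, neither past the threshold, and both turned sign with that scaling (0.21 and 0.28).

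Loci with the pattern most like each of the 8 were ranked by Pearson correlation of log2(group mean IPM + 1) over the 12 groups, among loci with at least 100 insertions. The points share libraries and depth, so the values are descriptive. Phox2a was nearest to Olfr630 (r = 0.986), and Hand2 to Hoxc9 and Hoxc8 (0.993 each), which lie side by side. Gata3 was nearest to Hoxc6 (0.982) and Hoxc8 (0.970), and Gata2 to Olfr149 (0.975) and Agbl1 (0.924). Mycn was nearest to Samd14 (0.993) and Pjvk (0.988), Dbh to Zc2hc1b (0.964) and Gmnn (0.948), Ret to Muc3 (0.955) and Plvap (0.938), and Isl1 to Pxt1 (0.896) and Ddx17 (0.890). Olfr630 had 126 IPM in N2a, Hoxc9 113 and Hoxc8 222, against 2.38, 0.876 and 1.33 in C57bl6J.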

How the data were processed

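Calling card insertions were taken from 47 tables, for 46 animals and N2a, built from 194 labelled samples. Each row is an insertion with its position, strand, barcode and read count. The tables carry no header; the deposited read counts are whole numbers. The submitters' processing notes name Novoalign, Bowtie2 and mm10, with no roles or versions. Rows, not reads, were counted in RefSeq loci (GRCm38.p6). Several sequencing pools mix groups per the labels, among them the SP1 animals of day 10 and day 28. The pools of the Syn1Cre animals and of the C57bl6J animals hold no other group.

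N2a against C57bl6J had no test; loci with at least 20 insertions over the 3 tables were compared, with a floor of 3 insertions at 0. Animal groups were tested with edgeR 4.0.16 in R 4.3.3 (quasi-likelihood, TMM, its low-count filter, Benjamini-Hochberg, threshold 0.05), with DESeq2 1.42.0 as an alternative. On counts simulated with 200 loci changed 3-fold, 84% were recovered for SP1 at day 28 over Syn1Cre (12053 loci) and 44% at day 10 (12787 loci). No label says more of the animals than a number, so p-values measure the spread between these tables.

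The members and lists were chosen with earlier results of these data known. Named were all 8 members, the 3 highest and 2 lowest ratios of each list, the 2 most similar loci over 1 Mb away or on another chromosome, overlapping genes and the 5 kb with the most N2a insertions. Other named features were chosen after their values were seen. Some loci that this rule names are not reported here. SP1 at day 10 over Syn1Cre and both tests of C57bl6J were added after seeing the data. Promoter entries were found for 7 of the 8 members.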

Additional observations from a re-analysis of the deposited data

Results flagged for a closer look

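In 39 checks of a gene within a group of 4 to 10 animals, 8 values stood apart from the rest of their group. The rule is set for about 1 in 20 by chance. That rate does not hold for counts this low, because a lone insertion in a group is always flagged. Of the 8 values, 7 are a single insertion where every other animal of the group held 0. These 7 are Phox2a at 2.39 insertions per 1000000 (IPM) in Syn1CreNeg animal 5 and at 2.47 in GFAPCreNeg animal 4, Hand2, Gata2 and Gata3 at 1.73 each in SP1 animal 4 of day 28, Gata2 at 19.9 in Rbp4Cre_TRAP animal 2, and Dbh at 17.5 in Rbp4Cre_TRAP animal 1. The remaining value was Isl1 at 51.3 IPM in Syn1CreNeg animal 2, from 5 insertions, where the other animals held 8.99 to 19.1.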

How the results depend on the processing

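The number of the 8 loci at least 2-fold higher in N2a was 5 and ranged from 4 (barcode AGTGC only, an alternative chosen after seeing the data) to 7 (50 kb on each side). With the gene body alone it was also 5, with Mycn (2.26) in place of Ret (1.61). The Hand2 ratio of 514 was 94.3 with the body alone and 117 with 50 kb, and the Isl1 ratio was 5.75 against Syn1Cre and 5.34 against GFAPCre. Counts of loci called moved more. For Syn1Cre over GFAPCre (248) they were 135 with distinct positions, 385 with the label layout as a block and 128 to 835 leaving out 1 animal. For Syn1Cre over Syn1CreNeg (2676) they were 1774 with distinct positions and 2053 to 3243 leaving out 1 animal. For GFAPCre over GFAPCreNeg (750) they were 473 with distinct positions, 316 with only animals that share a pool and 384 to 1115 leaving out 1. For SP1 at day 28 (6204) they were 3861 with distinct positions and 2839 without flanks, and at day 10 (5205) 2280 without flanks. For C57bl6J over Syn1Cre (117) they were 62 with DESeq2, 54 with total insertions, 2 to 250 leaving out 1 animal, and 2 without C57bl6J animal 2. For C57bl6J over GFAPCre (1657) they were 690 with DESeq2, 930 with distinct positions and 488 to 2079 leaving out 1. Values that turned sign were Isl1 in Syn1Cre over GFAPCre without GFAPCre animal 5 (0.045; range from -0.33 leaving out 1 animal), Isl1 with SP1 at day 28 without SP1 animal 3 (-0.26; range up to 1.28), Mycn in C57bl6J over Syn1Cre without C57bl6J animal 1 (0.11), Syn1Cre animal 1 (0.11) or Syn1Cre animal 3 (0.017; range from -0.25), and Mycn in C57bl6J over GFAPCre without flanks (-0.90); none had passed the test, and the cause was not tested. With the replicate number as a block the counts were 191, 2321, 632, 5979, 4863, 1111 and 1207 in the order above. The labels do not pair animals by number, and same-numbered animals correlated at -0.22 to 0.17. Phox2a, Hand2, Gata2 and Gata3 had few insertions in every animal group, also in C57bl6J, whose tables are deeper than that of N2a. They passed the low-count filter in no comparison, so their differences between animal groups were not tested.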
